A study of Tetranychus urticae with 4 samples.

Results

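The 6 vitellogenin genes of the two-spotted spider mite *Tetranychus urticae* (*Vg1* to *Vg6*) were examined in whole adult females that had or had not entered diapause. They were taken as the study names them, and they are 6 of the 18217 genes on the array. They are listed by 18 of the 56184 gene probes, *Vg1* (*tetur516g00020*) by 3, *Vg2* (*tetur39g00810*) by 4, *Vg3* (*tetur39g00700*) by 3, *Vg4* (*tetur43g00020*) by 4, *Vg5* (*tetur43g00010*) by 4 and *Vg6* (*tetur39g00720*) by 4. Of these probes, 3 list more than 1 member. All 18 probes passed the filter on dim signals.

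Vitellogenins are the large phospholipoglycoproteins from which egg yolk is made. In egg-laying arthropods they are secreted by yolk-forming tissues into the haemolymph and taken up by the growing oocytes through receptors of the low-density lipoprotein receptor family, and in the egg they feed the embryo. In mites and ticks their synthesis is thought to depend mainly on ecdysteroids, and in many insects on juvenile hormone. Diapausing females of *T. urticae* hold back the development of their ovaries.

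The arrays compared diapausing (DIA) with non-diapausing (NON-DIA) females of the green LS-VL strain in 4 replicates, and the question was how gene expression differs between these states when strain and environment are shared. All females had been kept from the larval stage at 17 °C, 80% relative humidity and 8 h of light to 16 h of dark, under which about 30% of the mites of this strain enter diapause. Diapausing females were picked by their orange colour, and each sample was RNA of a pool of whole females, so that each state is one of a single strain sorted by eye. On every array the DIA sample carried the dye Cy5 and the NON-DIA sample Cy3. The dyes were not swapped, so that dye and diapause cannot be told apart. By the study's methods the diapausing pools held more females than the non-diapausing pools, so that pool size also runs with diapause. All 4 arrays lay on 1 slide and were scanned at 1 time. In whole bodies, fewer cells of a type and less RNA per cell cannot be told apart either.

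Across the arrays, 67.2 to 69.5% of the gene spots were well above background in the Cy3 channel and 69.2 to 72.1% in the Cy5 channel, and no gene spot was saturated. A gene was called when its mean ratio differed from 1 with an adjusted p below 0.05 (limma, Benjamini-Hochberg over 14986 genes) and changed at least 2-fold. By this rule 1364 genes (9.1%) were lower and 1355 genes (9.04%) higher in diapausing females. That split depended on the scaling, with 804 lower and 337 higher after normexp background correction and loess normalisation, and 912 lower and 2788 higher after scaling to the spike-in controls. The median log2 ratio of all genes tested was 0.10.

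All 6 vitellogenin genes were lower in diapausing females on all 4 arrays and all 6 were called lower, where 9.1% of all genes tested were. Their mean log2 ratios of DIA over NON-DIA lay between -9.22 and -7.74, that is 213- to 596-fold, with a median of -8.36. The study named these genes among its largest falls on the same arrays, so the calls are not independent evidence of the direction. The signals below are processed signals, the brightness of a channel after background subtraction and dye normalisation, averaged on the log scale over the probes of a gene. They are in arbitrary units and are compared between samples, not between genes.

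*Vg1* had processed signals of 476659, 421475, 373993 and 425165 in the NON-DIA samples of replicates 1 to 4, against 893, 1539, 950 and 9767 in the DIA samples. The 4 NON-DIA samples were close together. The DIA sample of replicate 4 was 8.94-fold the mean of the other DIA samples, taken on the log scale, and still far below every NON-DIA sample. The mean log2 ratio was -7.81 ± 1.62 (SD, n = 4; limma adjusted p = 0.000491).

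*Vg2* had NON-DIA signals of 424406, 364585, 355108 and 406477 and DIA signals of 513, 868, 491 and 5846. Again the groups did not overlap, and the lowest NON-DIA sample was 60.7-fold above the highest DIA sample. The mean log2 ratio was -8.51 ± 1.65 (SD, n = 4; limma adjusted p = 0.000412).

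*Vg3* had the largest mean fall and the widest spread of the 6 genes. Its NON-DIA signals were 247472, 222125, 213442 and 227302 and its DIA signals 85.1, 327, 141 and 5394. The DIA samples thus ranged over 63.4-fold, with replicate 1 at the bottom and replicate 4 at the top, while the NON-DIA samples ranged over 1.16-fold. The mean log2 ratio was -9.22 ± 2.69 (SD, n = 4; limma adjusted p = 0.00131). On replicate 1 the log2 ratio of *Vg3* was -11.51, and without the 1 of its 3 probes that was not well above background in the DIA channel there it was -11.21.

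*Vg4* had NON-DIA signals of 73284, 64396, 66158 and 66527 and DIA signals of 104, 333, 167 and 1726. It had the smallest mean fall of the family, and even here the lowest NON-DIA sample stood 37.3-fold above the highest DIA sample. The mean log2 ratio was -7.74 ± 1.81 (SD, n = 4; limma adjusted p = 0.000694).

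*Vg5* had NON-DIA signals of 204316, 134276, 138514 and 140517 and DIA signals of 183, 543, 215 and 1812. It was the gene with the widest spread among NON-DIA samples, where replicate 1 stood above the others, and the narrowest among DIA samples, which ranged over 9.90-fold. The mean log2 ratio was -8.42 ± 1.69 (SD, n = 4; limma adjusted p = 0.000449).

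*Vg6* had NON-DIA signals of 124564, 110375, 107981 and 109866 and DIA signals of 74.3, 435, 196 and 2545. Its DIA samples kept the order seen in *Vg3*, lowest in replicate 1 and highest in replicate 4. The mean log2 ratio was -8.31 ± 2.22 (SD, n = 4; limma adjusted p = 0.000996).

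**Figure D1:**
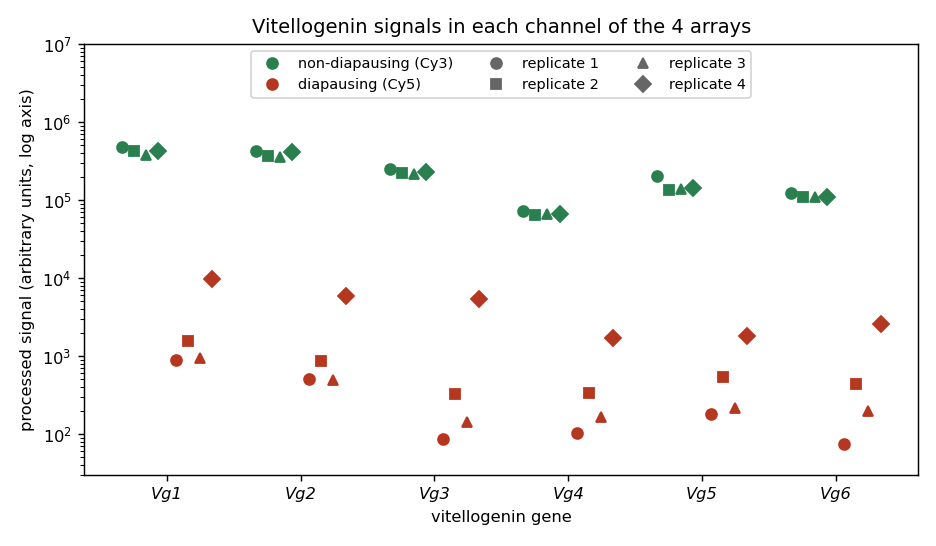
Processed signal (arbitrary units, log axis) of the 6 vitellogenin genes in the NON-DIA channel (green) and the DIA channel (red), with 1 symbol per replicate. The groups do not overlap for any gene, and the DIA sample of replicate 4 (diamonds) lies above the other DIA samples in all 6.

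The spread between replicates therefore lay almost wholly in the diapausing samples. The SD of the log2 signal was 0.08 to 0.29 over the NON-DIA samples of the 6 genes and 1.52 to 2.67 over the DIA samples. Ranked from the largest fall among all 14986 genes, *Vg3* was at place 2, *Vg2* at 3, *Vg5* at 4, *Vg6* at 5, *Vg1* at 8 and *Vg4* at 9. The first place was held by the lipase A gene *tetur09g06700*. These places depended on the background correction and on the replicates. *Vg3* was at place 1 and *tetur09g06700* at 7 after normexp with loess, and at 1 and 10 after normexp with median centring. *Vg3* was also first without replicate 2 and without replicate 4. The places depended on the probes too. The midA gene *tetur09g06670* had a mean of -7.82 over all its probes and -10.42 without a probe that it shares with another gene. On probes of 1 gene only, midA was at place 1, *Vg3* at 3, *Vg2* at 4, *Vg5* at 5, *Vg6* at 6, *Vg1* at 8 and *Vg4* at 15.

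By array, the 6 genes had a median log2 ratio of -9.91 in replicate 1, -8.04 in replicate 2, -9.22 in replicate 3 and -5.44 in replicate 4. The diapausing females thus held a median of 0.105, 0.380, 0.168 and 2.31% of the vitellogenin signal of the non-diapausing females, in the same order. All 6 genes had their smallest fall in replicate 4 and their largest in replicate 1. The DIA signal of replicate 4 was 6.53-fold (*Vg5*) to 34.2-fold (*Vg3*) the mean of the other DIA samples, taken on the log scale. The 6 genes also stood closer together there, ranging over 1.01 log2 units in replicate 4 against 2.45, 1.81 and 1.95 in replicates 1 to 3. Without replicate 4 the median log2 ratio of the family was -9.20 and all 6 genes were still called lower.

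Replicate 4 did not differ in this way for most genes. Its median log2 ratio over all genes was 0.09, against 0.12, 0.09 and 0.08 in replicates 1 to 3. The gap between replicate 4 and the mean of the other replicates had a median of 3.24 log2 units over the 6 vitellogenins. It was 1.29 over the 27 other genes with a mean log2 ratio of -6 or lower, 0.27 over the 92 genes between -6 and -4, and 0.06 over the 367 genes between -4 and -2. Replicate 4 was the highest array for 81.5% of those 27 genes, for 44.6% and 30.2% of the next classes and for 23.4% of the genes with a mean above 0. Most of those 27 genes fell less than the vitellogenins. Other genes with means as low also stood far higher in replicate 4 than their mean over replicates 1 to 3. The values were -5.004 against -9.09 for *tetur18g03020*, -6.90 against -10.26 for *tetur09g06700* and -5.47 against -8.61 for *tetur09g06670*. Replicate 4 was also the highest array for all 14 other genes that the study named for large falls, with a median gap of 1.59. Fewer genes reached deep falls on that array, with 13 genes below -6 against 44, 32 and 38 in replicates 1 to 3, although 54 were below -5 against 84, 57 and 57.

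**Figure D2:**
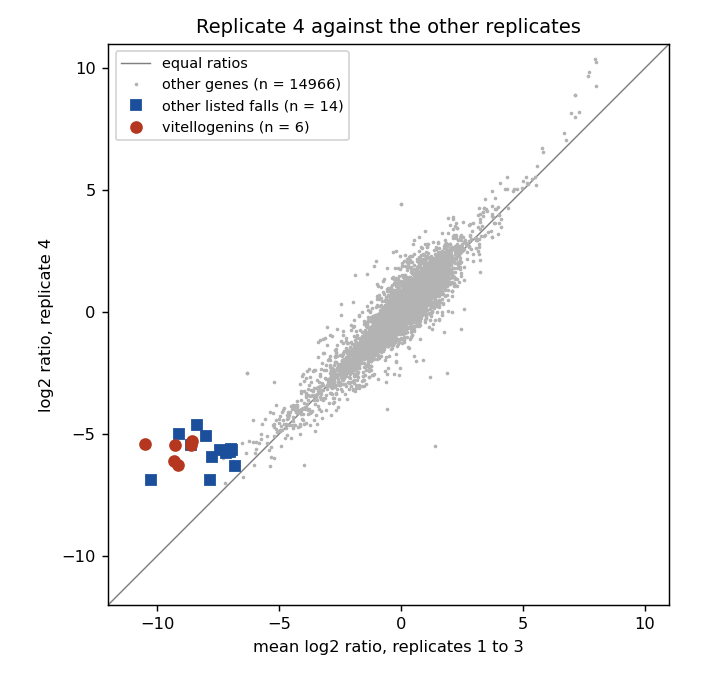
Log2 ratio (DIA over NON-DIA) of each gene in replicate 4 (vertical axis) against its mean over replicates 1 to 3 (horizontal axis), with the 6 vitellogenins in red, 14 other genes named in the study for their large falls in blue and the remaining genes in grey. Most genes lie along the line of equal ratios, while the vitellogenins lie above it by a median of 3.24 log2 units. The 14 other named genes also lie above it, by a median of 1.59.

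The labelled RNA carried spike-in controls, for which the scanner software writes an intercept of the observed against the intended log ratio. On the log2 scale it was -0.03, -0.74, 0.13 and -0.81 in replicates 1 to 4, so that replicate 4 was like replicate 2 in this value. After each array was shifted by its intercept, the median log2 ratio of the vitellogenins was -9.88, -7.30, -9.35 and -4.63, and replicate 4 remained the highest. The part of RNA amount, of the sorting of females and of the array in this difference was not tested.

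The individual probes followed the same order with few exceptions. Replicate 4 had the smallest fall for all 18 probes. The largest fall was in replicate 1 for 14 of them, and the exceptions were *Vg2* probes 1 and 2, *Vg4* probe 1 and the probe that lists *Vg1*, *Vg2* and *Vg5*. In the NON-DIA channel all 18 probes were well above background on all 4 arrays. In the DIA channel 15 of them were, and the other 3 (*Vg3* probe 1, *Vg4* probe 2 and a probe listing *Vg4* and *Vg6*) were not well above background in replicate 1, so that their ratios there rest on signals near the background. From the probes detected in that channel alone, the replicate 1 ratio was -7.76 for *Vg4*, against -9.45 over all its probes, and -10.53 for *Vg6*, against -10.71.

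Within 3 genes, 1 probe fell less than the rest. *Vg1* probe 1 had a mean log2 ratio of -6.73 against -8.64 for the other probe that lists *Vg1* alone. *Vg2* probe 1 was at -6.57 against -9.63 and -9.79, and *Vg4* probe 1 at -5.72 against -8.31. These 3 probes were singled out after their values were seen, so no test was made of them. Their DIA signal was 0.526 to 2.89% of the NON-DIA signal in replicate 1, where the other 15 probes were at 0.0228 to 0.180%. In replicate 4 the sets overlapped, at 2.01 to 3.93% and 0.988 to 2.71%. In *Vg4* probe 1 the DIA signal of replicate 1 was 1342, above the 475 and 444 of replicates 2 and 3 and below the 1727 of replicate 4, which is not the order of the other probes of the gene.

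**Figure D3:**
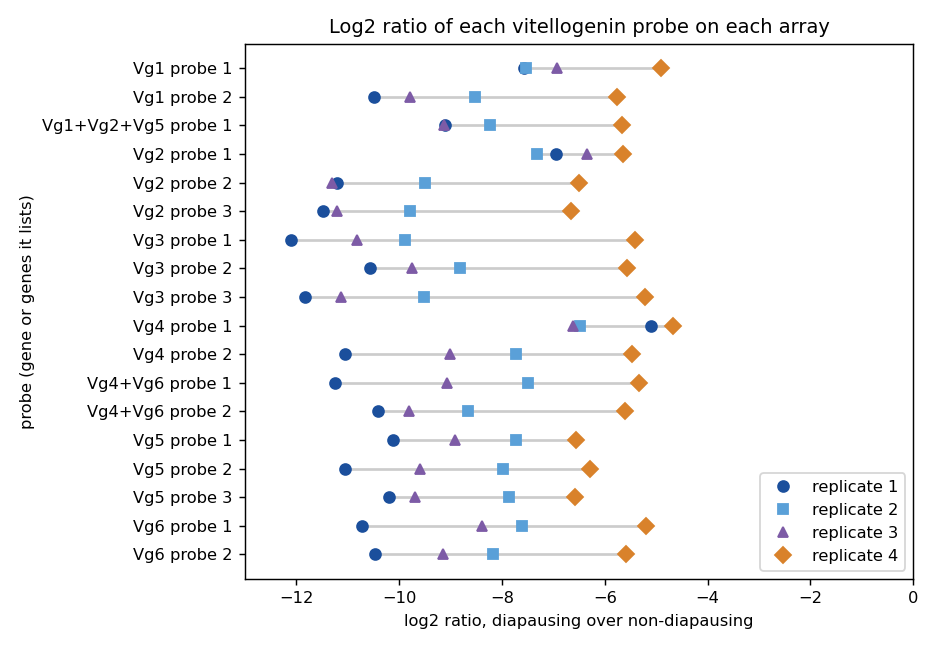
Log2 ratio (DIA over NON-DIA) of each of the 18 vitellogenin probes, named by the gene or genes they list, with 1 symbol per array and a grey line over their range. Replicate 4 (diamonds) is the rightmost symbol in every probe, and *Vg1* probe 1, *Vg2* probe 1 and *Vg4* probe 1 lie to the right of the other probes of their genes in replicates 1 to 3.

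Of the probes that list more than 1 member, 1 lists *Vg1*, *Vg2* and *Vg5* and had a mean log2 ratio of -8.04, and 2 list *Vg4* and *Vg6* and had -8.29 and -8.62. *Vg3* shared no probe. Such probes cannot tell the genes they list apart, so the members were compared with each other on probes of 1 gene only. On these the mean log2 ratios were -7.69 ± 1.63 for *Vg1*, -8.66 ± 1.65 for *Vg2*, -9.22 ± 2.69 for *Vg3*, -7.02 ± 1.36 for *Vg4*, -8.55 ± 1.75 for *Vg5* and -8.16 ± 2.16 for *Vg6* (SD, n = 4).

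The members moved together from array to array, and the SD of the difference between 2 genes within an array was 0.19 to 1.33 log2 units over the pairs, against 1.36 to 2.69 for the ratios themselves. Of the 15 pairs, 8 differed in the same direction on all 4 arrays. On these probes *Vg4*, with 2 of them, had the smallest fall on every array, while over all its probes it did so in replicates 2 and 4 and *Vg1* did so in replicates 1 and 3. *Vg2* minus *Vg4* was -1.64 ± 0.29 log2 units (SD, n = 4) and *Vg1* minus *Vg4* was -0.67 ± 0.33, and *Vg3*, *Vg5* and *Vg6* also lay below *Vg4* on 4 of 4 arrays. *Vg1* lay above *Vg2* by 0.97 ± 0.19 and above *Vg3* by 1.53 ± 1.08 on 4 of 4 arrays. *Vg3* minus *Vg6* was -1.06 ± 0.79 and below 0 on 4 of 4, but the genes were nearly equal in replicate 4 (-5.397 and -5.393). With 4 arrays an exact two-sided sign-flip permutation test cannot give a p below 0.125 (0.234 after adjustment over the 15 pairs), so the differences are given with their spread and the test decides nothing about them. The order of the other 7 pairs changed between arrays. *Vg2* and *Vg5* differed by -0.11 ± 0.68 with *Vg2* higher on 2 of 4 arrays, and *Vg5* and *Vg6* by -0.39 ± 0.58 with *Vg5* higher on 2 of 4. The differences that involve *Vg1*, *Vg2* and *Vg4* include the probes with small falls given above.

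The gene models are numbered along the scaffolds of the genome assembly, and 5 of the 6 vitellogenins lie on 2 of them. Places were counted over the models with probes on the array, so models without probes may lie between them. In that order *Vg3* and *Vg6* are consecutive models on scaffold 39 and *Vg2* lies near the end of the same scaffold. *Vg5* and *Vg4* are the first models of scaffold 43, and *Vg1* is on a small scaffold with 1 other model, which had no probe above the filter. Of the 18 models within 5 places of a member, 11 could be tested. None of them fell as the vitellogenins did. Their median log2 ratio was 0.81, 5 were called higher (where 9.04% of all genes were) and 1 lower.

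On scaffold 39 the models tested between *Vg6* and *Vg2* had mean ratios above 0. The highest was *tetur39g00780*, for which no function is given in the sources used here, at 3.66, 4.31, 4.09 and 3.98 in replicates 1 to 4 (mean 4.01 ± 0.27, SD, n = 4; limma adjusted p = 5.33e-05). Of its 3 kept probes, 2 list other genes too. Its mean was 4.36 on probes of 1 gene only and 3.01 without the detection filter. All 6 kept probes of *tetur39g00730* and 5 of the 7 of *tetur39g00800* also list other genes. Next to *tetur39g00780*, *tetur39g00790* had a mean of 2.27 ± 0.34. On the other side of *Vg3*, *tetur39g00670* had 1.96 ± 0.39, *tetur39g00640* 1.22 ± 0.18 and *tetur39g00660* 1.00 ± 0.15, the last just at the 2-fold threshold. *Tetur39g00680*, the model beside *Vg3* among those with probes, was at 0.07 ± 0.03 and was not called. Of the neighbours of *Vg4*, *tetur43g00080* was the model called lower, at -1.42 ± 0.33.

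**Figure D4:**
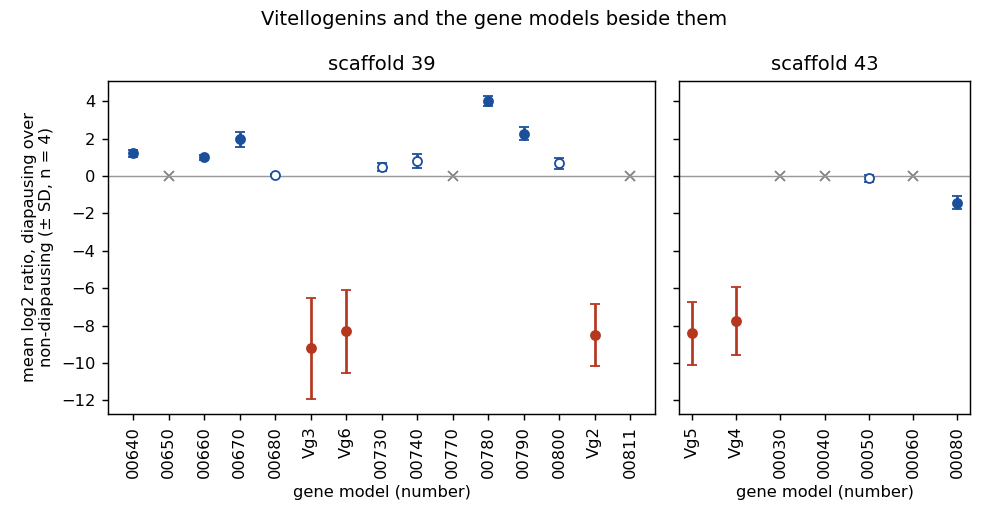
Mean log2 ratio (DIA over NON-DIA, ± SD, n = 4) of the vitellogenins and the gene models beside them on scaffolds 39 and 43. Models with probes on the array are shown in the order of their numbers. Vitellogenins are in red and other genes in blue, with filled circles for called genes and crosses at 0 for models with no value. The vitellogenins lie between -9.22 and -7.74, and the neighbours tested lie between -1.42 and 4.01.

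The genes most like the vitellogenins over the 4 arrays were found by the root mean square difference of their log2 ratios from the median of the 6 members. It was 0.41 to 1.25 for the members themselves. The nearest other gene was *tetur18g03020*, for which no function is given in the sources used here, with a difference of 0.41 and log2 ratios of -10.32, -8.25, -8.70 and -5.004 in replicates 1 to 4. *Tetur09g06670*, named midA in the study, followed at 0.74 with -8.58, -8.49, -8.75 and -5.47, but 1 of its 4 probes lists another gene too and had a mean of -0.04. On its own 3 probes it was at -11.45, -11.29, -11.62 and -7.31, with a difference of 2.36. *Tetur18g03030*, named *TEP1* after the thioester-containing proteins of insect immunity, was at 0.81 with -9.25, -7.79, -8.01 and -4.63. The choice by likeness over all 4 arrays includes replicate 4, so a small fall there is part of how these genes were found. *Tetur18g03050* (0.98) and *tetur01g16519* (1.31) were next, with mean log2 ratios of -7.27 ± 1.53 and -7.30 ± 1.01. Of the 5 nearest genes, 3 carry numbers of the same stretch of scaffold 18.

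Genes of lipid uptake and handling were set beside the vitellogenins because yolk is rich in lipid. The genes of this list were taken from those that the study discussed for these arrays, so their calls are not independent evidence of direction. Of the 6 genes, 4 were called lower (9.1% of all genes were) and 2 higher (9.04% of all genes were), with a median of -4.70. The low-density lipoprotein receptor gene *tetur26g00570*, of the family that holds the vitellogenin receptors of other arthropods, had log2 ratios of -7.96, -5.81, -7.28 and -5.66 (mean -6.68 ± 1.12, SD, n = 4; limma adjusted p = 0.000294). Its order over the replicates was that of the vitellogenins, while its range was smaller. Lipase A genes encode enzymes that release fatty acids from stored or dietary fats, and *tetur09g06700* was at -9.93, -10.90, -9.95 and -6.90 (mean -9.42 ± 1.74). In the DIA channel, 9 of the 16 spots of *tetur26g00570* and 5 of the 12 spots of *tetur09g06700* were well above background, so that these ratios rest in large part on signals near the background.

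The other lipase A gene, *tetur17g03230*, had ratios of -6.72, -7.02, -6.86 and -6.10 (mean -6.68 ± 0.40), with 7 of its 12 DIA spots well above background. The size of these falls depended on the background correction. After normexp with loess they were -4.45 for *tetur26g00570*, -7.15 for *tetur09g06700* and -4.61 for *tetur17g03230*, and with median centring -4.14, -6.84 and -4.31. The median of the 6 vitellogenins was -7.87 and -7.69 under the same settings. *Tetur10g00920*, a class B scavenger receptor-like gene of a family that takes up lipoprotein lipid, was at -2.73 ± 0.53. In the opposite direction, *NPC1* (*tetur05g01210*), which moves cholesterol out of endosomes, was at 1.08 ± 0.23, and HMG-CoA reductase (*tetur05g02770*), an enzyme of the mevalonate pathway, at 1.74 ± 0.34. The call of *NPC1* was lost under 4 of 14 alternatives, with means of 0.99 without replicate 4 and 0.88 after normexp with loess, with or without the pairing, and an adjusted p of 1 in limma's test beyond 2-fold.

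Of 10 hormone-related genes, 5 were called lower (9.1% of all genes were) and 3 higher (9.04% of all genes were), with a median of -0.44. The list holds genes that the study reported as changed on these arrays, so the counts are not independent evidence. The counts also depended on the normalisation (2 lower after normexp with median centring, 1 higher after normexp with loess). The relaxin-like receptor gene *tetur15g00700*, at -2.36 ± 0.09, and *NPF-1* (*tetur10g02210*), at -1.72 ± 0.32, kept their calls under all 14 alternatives. *CYP307A1* (*tetur10g03900*), an enzyme of ecdysteroid synthesis, was at -1.23 ± 0.17. The retinoid X receptor gene *tetur01g09220*, whose insect counterpart pairs with the ecdysone receptor, was at -1.20 ± 0.17. Both lost their calls after normexp with median centring (-0.84 each), after spike-in scaling (-0.87 and -0.84) and in limma's test beyond 2-fold. The ecdysone-response gene *E78* (*tetur07g04810*) was at 1.32 ± 0.03, and at 0.97 and not called after normexp with loess. *E23* (*tetur17g02510*), an ecdysone-induced transporter in *Drosophila*, was at 1.80 ± 0.20. Juvenile hormone epoxide hydrolase (*tetur11g03700*), which degrades juvenile hormone in insects, was at 0.33 ± 0.12 and was not called. The means of the 10 genes lay between -2.36 and 1.80, and replicate 4 differed from the mean of the other replicates by at most 0.46 log2 units in any of them.

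Genes of the cell cycle and DNA synthesis, which growing ovaries use, were also set beside the vitellogenins. The list also counts a pair of ubiquitin hydrolase genes, which the study gave in its comparison across species without tying them to either process. Of the 6 listed, 0 were called in either direction by limma with the 2-fold threshold (18.1% of all genes were), and their median was -0.41. At that share, 0 calls in so short a list says little about these genes. At an unadjusted p under 0.05, and also at an adjusted p under 0.05, 5 of them differed from 0, all by less than 2-fold. No share of all genes without the 2-fold threshold is given here, so that count is not read as a trait of the list. The differences of these 5 genes from 0 depended on the scaling. After scaling to the spike-in controls they lay between -0.39 and -0.04, with limma adjusted p of 0.291 to 0.924. That scaling shifts all genes of an array alike, so these p-values mainly reflect the common shift and not the spread of each gene. The pair of ubiquitin hydrolase genes among them has the same probes, and the pair of ribonucleotide reductase genes shares 4 of 5, so these are not separate measurements. The proliferating cell nuclear antigen gene (*tetur20g01760*), the sliding clamp of DNA replication, was at 0.13 ± 0.24 (limma adjusted p = 0.334), and its sign turned with the settings, at -0.20 (limma adjusted p = 0.0269) when probes had to be detected in both channels, -0.15 as a median over probes and -0.11 after normexp with loess. A histone H2A variant (*tetur11g02430*) was at -0.75 ± 0.02, below the 2-fold threshold on all 4 arrays. The actin, ubiquitin C and RP49 reference genes of the study lay between -0.31 and 0.40. Of these, actin (limma adjusted p = 0.0105) and ubiquitin C (limma adjusted p = 0.00302) also differed from 0 by less than 2-fold.

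Genes of other tissues of the whole female are given as a description, since both lists hold genes that the study reported as changed on these arrays and their counts were fixed by that choice. All 5 muscle genes were called higher (9.04% of all genes were), with a median of 1.52 (2 of them after normexp with loess). Their summed processed signal was 1523 to 2000 in the NON-DIA samples and 5397 to 7259 in the DIA samples. Of the 37 listed genes of the papain-like and legumain peptidase families, used in digestion, 34 were called lower (9.1% of all genes were) and 3 higher, with a median of -2.09. Their summed signal was 584204 to 700525 in the NON-DIA samples and 181326 to 223941 in the DIA samples. Every gene of both lists had a probe well above background in both channels on all 4 arrays. The log2 ratio of the summed signals was 1.503 to 2.12 over the arrays for the muscle genes, -1.95 to -1.58 for the peptidase genes and -9.71 to -5.67 for the vitellogenins, and the part of other tissues in the vitellogenin difference was not tested.

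**Figure D5:**
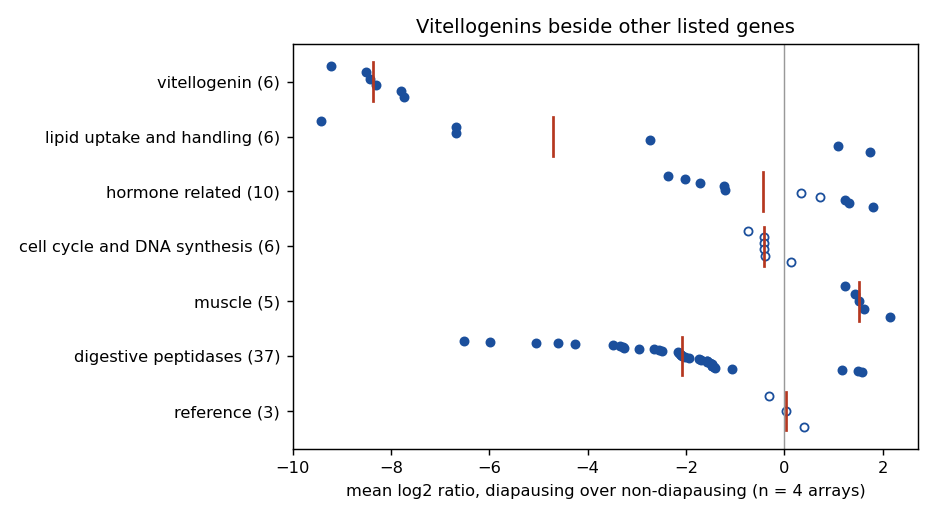
Mean log2 ratio (DIA over NON-DIA, n = 4 arrays) of each gene of the vitellogenin list and of 6 other lists, with the number of genes in brackets, filled circles for called genes, open circles for genes not called and a red bar at the list's median. The vitellogenins (median -8.36) lie together at the far left, beside 1 lipase A gene at -9.42.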

How the data were processed

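RNA of pools of diapausing and non-diapausing females was hybridised by the authors to 4 custom Agilent arrays, the pair of a replicate on 1 array, and each image was processed with Agilent Feature Extraction 10.7.1.1 (version from the file headers). The deposited intensity values are the median signal and median background per spot and channel and the processed signal, from which background and spatial trends had been taken out and the dyes normalised within the array. The deposited log10 values are the software's ratios of processed Cy5 over processed Cy3 and were converted here to log2. A second deposited table holds log2 ratios that the authors exported from the same signals; these matched within 0.001 for 83.2 to 84.4% of spots and differed where the software writes a ratio of 0. Gene names and functions are those of the study's annotation.

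Of 62976 spots per array, 1319 were controls and were left out, as were 49 to 114 spots per array marked as non-uniform or as outliers. Probes that rose well above background in either channel on 2 or more arrays were kept, which left 40200 probes that list a gene. Gene values are means over the kept probes, and a probe that lists several genes counted for each. The ratio within an array keeps both samples of a replicate paired. The mean ratio was tested against 0 by limma (version 3.58.1, lmFit followed by eBayes, run in R 4.3.3, tables read by data.table, version 1.17.8), with adjustment over all 14986 genes. The fit was tested on simulated data. Figures were drawn with matplotlib 3.10.9 under Python 3.11.15, after pandas 2.3.3 and numpy 2.4.6 had read the values. The number of arrays limits the precision. The labels do not say that the replicates came from separate cultures, and the study states that its RNA came from a single population. The p-values therefore measure the spread between pools of that population, which may be partly technical. Under the spike-in scaling they mainly reflect the shift given to each array.

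The text names the members, the genes of the lists on which a result turns, the neighbours past the threshold and the 5 genes closest to the members. The members and lists were chosen with earlier results of these data known. The alternatives were another background correction and normalisation, scaling to the spike-in controls, the deposited table of log2 ratios, other detection filters and probe summaries, separate channels, a test beyond 2-fold (limma's treat), and leaving out each replicate.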

Additional observations from a re-analysis of the deposited data

Results flagged for a closer look

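Of 83 sets of 4 values examined, 6 held a sample whose gap to the nearest other sample, as a share of the whole range, exceeded Dixon's 95% critical value, and chance alone gives about 1 in 20. The NON-DIA signal of *Vg5* was set apart in replicate 1 (0.892 of the range), where it was 204316 against 134276 to 140517. That of *Vg6* was also highest in replicate 1 (0.846), at 124564 against 107981 to 110375. The midA gene *tetur09g06670* stood apart in replicate 4 (0.921), at -5.47 against -8.75 to -8.49, and so did the class B scavenger receptor-like gene *tetur10g00920* (0.974), at -1.94 against -3.01 to -2.98. The *Vg3* neighbour *tetur39g00680* had 1 high value in replicate 3 (0.902), at 0.12 against 0.05 to 0.06. The ribonucleotide reductase gene *tetur12g00060* had 1 high value in replicate 1 (0.863), at -0.26 against -0.48 to -0.45. By this criterion replicate 4 was not set apart for any vitellogenin gene, since replicates 1 to 3 also differed among themselves.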

How the results depend on the processing

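All 6 vitellogenin genes were called lower under all 14 alternatives, with a largest adjusted p (limma) of 0.00332 for *Vg2* to 0.00784 for *Vg3*. Their median log2 ratio of -8.36 ranged from -9.20 to -7.68, and both ends came from leaving out 1 replicate, replicate 4 and replicate 1. With the array pairing dropped (separate channels, no replicate block) the fit was made on the normexp and loess values, where all 6 vitellogenins were again called lower and the counts of the lists were those of that normalisation.

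Counts of the other lists depended more on the processing. Under normexp with loess, and without the block, 804 genes were lower and 337 higher, 1 lipid gene, 1 hormone-related gene and 2 muscle genes were higher and 0 neighbours were lower. Under normexp with median centring 603 were lower and 644 higher, with 2 hormone-related genes and 0 neighbours lower. Scaling to the spike-in controls moved the median of all genes from 0.10 to 0.47, with 2788 genes higher and 3 hormone-related genes lower. Requiring detection in both channels on all arrays left 817 genes higher and 2 lipid genes lower, since *tetur26g00570* and *tetur09g06700* then had no probe left. With the test beyond 2-fold, 708 genes were lower and 455 higher, 1 lipid gene was higher, 3 hormone-related genes were lower, 3 muscle genes and 1 digestive peptidase gene were higher, and 3 neighbours were higher and 0 lower. Leaving out each replicate in turn gave 1 to 2 lipid genes higher, the 1 without replicate 4. Of 584 values of single genes under the alternatives, 30 in 9 genes lost their call, 1 gained one (*tetur08g06490* under spike-in scaling, at 1.09) and none changed direction past the threshold. Except where the filter removed the probes, the cause of these changes was not tested. Values near the background in the DIA channel limit how deep a fall can be measured.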
